A study of Homo sapiens with 4 samples.

Results

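Homologous recombination and Fanconi anemia repair were described through 33 genes in RNA-seq of SK-N-SH cells, an established human neuroblastoma line. The 33 genes were listed by symbol for their roles in both routes, with earlier results of these data known, out of 57820 genes in the table. All 33 were found and all 33 passed the filter on low counts, with 87 to 3967 counts per library. The 2 OE libraries came from cells transduced with a lentivirus that carried the lncRNA *RP5-998N21.4* behind the EF1a promoter (OE), while the 2 libraries of the vector control came from cells transduced with the empty lentivirus. The control libraries are titled WT, but their treatment label gives the empty vector, so both conditions share the line and the viral transduction. The labels do not say whether the libraries of a condition came from separate cultures, so the spread between them may be technical.

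Homologous recombination repairs a broken chromosome by copying the sister chromatid. The MRE11-RAD50-NBN complex senses and trims the break, BRCA1 with BARD1, PALB2 and BRCA2 prepares the single strand for pairing with the sister, and accessory proteins, the RAD54 proteins among them, assist the strand exchange. The Fanconi pathway acts on crosslinks between the DNA strands, where a core complex places ubiquitin on the FANCD2-FANCI pair and so calls in nucleases and recombination. Both routes work mainly in S and G2 phase, and many of their genes are transcribed as cells enter S phase.

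Library totals lay between 23785164 and 28307591 counts, and expression is given as CPM, each count scaled to the library's total after edgeR's TMM normalization. *RP5-998N21.4*, whose reads may be shared with a near-identical gene, had 32 and 33 counts in the controls and 2407 and 2808 counts in OE. Of 11 neuroblastoma markers, 10 had at least 330 counts in every library, while *TH*, the enzyme of catecholamine synthesis, had 0 in all 4, which allows up to 3 counts each. The 6 markers of other tissues had at most 30 counts. Mitochondrial genes took 6.01% to 6.5% of the counts.

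With 2 libraries against 2, an exact permutation test of a single gene cannot go below a two-sided p of 0.333, so the test used was edgeR's quasi-likelihood test over 20528 genes with Benjamini-Hochberg adjustment. With the thresholds of the study (adjusted p under 0.01, absolute log2 fold change above 0.5), edgeR called 0 of the 33 genes, as it called 0 of all tested genes (0%). *RP5-998N21.4* itself, at a log2 fold change of 6.11, also missed the threshold in edgeR (adjusted p 0.0109) and passed it in DESeq2 (adjusted p 1.9e-200). At an adjusted p under 0.05 edgeR also called 0 of the 33, against 0.594% of all tested genes. By the unadjusted p under 0.05, 9 of the 33 genes were lower in OE (27.3%, against 10.7% of all tested genes) and 0 were higher (0%, against 10.1%). The 9 were *FANCM*, *FANCD2*, *FANCI*, *BARD1*, *XRCC2*, *RAD54L*, *RAD54B*, *SLX4* and *RAD18*, and their adjusted p-values in edgeR ran from 0.095 to 0.231. The count of lower genes among the 33 was 4 without vector control replicate 1 (12.1%, against 7.59% of all genes tested in that fit), 5 without OE replicate 1 (15.2%, against 8.81%) and 4 without OE replicate 2 (12.1%, against 9.82%). Without vector control replicate 2 it was 7 (21.2%, against 7.54%), of which 5 were among the 9 and the others were *ATR* and *CHEK2*. With upper-quartile normalization 5 genes were lower (15.2%, against 9.25%). *FANCC* was higher there, and the share of all genes higher in that fit is not given. limma-voom called 0 of the 33, as it called 0 of all tested genes (0%). DESeq2, the tool named in the study's methods, called 5 (15.2%, against 8.77% of all tested genes), 5 lower (background 4.42%) and 0 higher (background 4.35%). The 5 were *FANCD2*, *FANCI*, *BARD1*, *RAD54L* and *RAD54B*.

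In both OE libraries below both vector control libraries were 17 of the 33 genes (51.5%, against 27.6% of all tested genes), and above them were 5 (15.2%, against 27.8%). The fitted log2 fold change, OE minus vector control, was below 0 for 22 of 33 genes (66.7%, against 49.3%), with a median of -0.17 beside 0.01 over all tested genes. The values of the 33 genes ran from -0.80 for *FANCD2* to 0.31 for *FANCC*. In these bulk libraries, fewer cells that express a gene and less RNA per cell cannot be told apart.

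**Figure D1:**
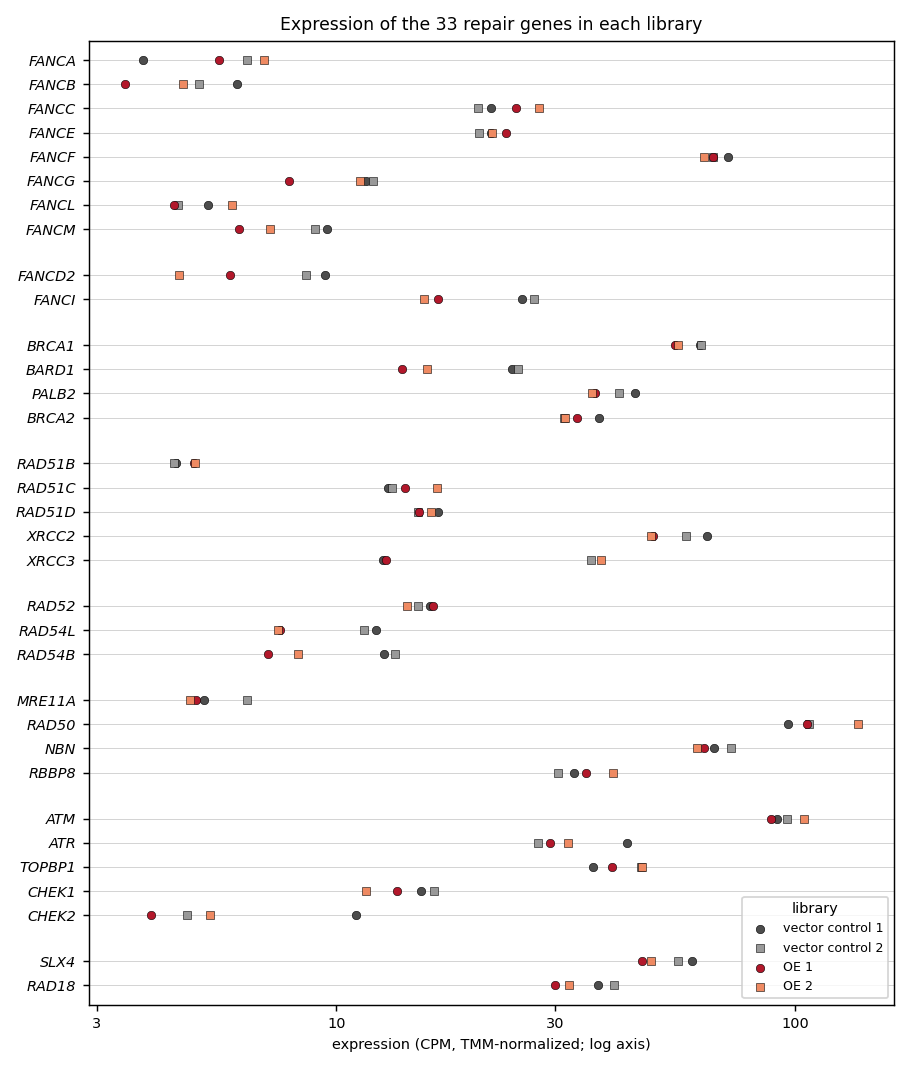
Expression of the 33 repair genes in CPM on a log axis, 1 row per gene and 1 point per library (2 vector control and 2 OE libraries). The OE points of *FANCD2*, *FANCI*, *BARD1*, *RAD54L* and *RAD54B* sit to the left of both control points, and *XRCC3* has 1 low and 1 high library in each condition.

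The FANCD2-FANCI pair, which the Fanconi core complex marks with ubiquitin, was lower in OE in both of its genes at the unadjusted p. *FANCI* (ENSG00000140525, hg19 chromosome 15, 89787176 to 89860492) had 592 and 635 counts in the controls and 418 and 448 counts in OE. In CPM it was at 26.2 ± 1.13 (SD, n = 2) in the controls against 16.1 ± 0.827 (SD, n = 2) in OE, 61.3% of the control. Its log2 fold change was -0.71 (standard error 0.112, edgeR adjusted p 0.095), the smallest adjusted p among the 33 genes. *FANCI* kept to the lower side with every library left out in turn, from -0.76 to -0.65.

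*FANCD2* (ENSG00000144554, hg19 chromosome 3, 10068054 to 10143616) had 220 and 202 counts in the controls and 147 and 131 counts in OE. Both OE libraries lay below both controls, at 9.02 ± 0.602 CPM (SD, n = 2) against 5.19 ± 0.94 CPM (SD, n = 2). The log2 fold change of -0.80 (standard error 0.198, edgeR adjusted p 0.156) was the lowest of the 33. Its unadjusted p stayed under 0.05 in 9 of 12 alternative analyses, and was above it without vector control replicate 1, without vector control replicate 2 and without OE replicate 2.

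Among the 8 core complex genes, which build the ubiquitin ligase, 1 was lower at the unadjusted p (10.7% of all tested genes were), and the median log2 fold change was -0.00. That gene was *FANCM*, the DNA translocase that anchors the complex on DNA, with 222 and 211 counts in the controls and 154 and 207 in OE. Both OE libraries were below both controls (9.26 ± 0.392 against 6.65 ± 0.721 CPM, SD, n = 2 each), and its log2 fold change was -0.48 (standard error 0.156, edgeR adjusted p 0.221). *FANCL*, the subunit with ligase activity, was at 0.08, *FANCE* at 0.10, *FANCF* at -0.09, *FANCA* at 0.30, *FANCG* at -0.30 and *FANCB* at -0.45 on the log2 scale, and none of these 6 had an unadjusted p under 0.05. These values moved with 1 library left out, *FANCG* between -0.58 without OE replicate 2 and -0.066 without OE replicate 1, and *FANCB* between -0.68 and -0.26 without the same libraries. *FANCA* and *FANCL* crossed 0, *FANCA* from -0.034 without vector control replicate 1 to 0.72 without vector control replicate 2, and *FANCL* from -0.14 without OE replicate 2 to 0.28 without OE replicate 1. With 1 library left out, *FANCE* ran from 0.047 to 0.15 and *FANCF* from -0.15 to -0.035. *FANCC* had 506 and 479 counts in the controls and 617 and 802 in OE. It had the highest log2 fold change of the 33, 0.31 (standard error 0.12, edgeR adjusted p 0.267), and both OE libraries were above both controls.

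In the BRCA group, *BARD1*, the partner that forms a ubiquitin ligase with BRCA1, was lower at the unadjusted p while *BRCA1*, *PALB2* and *BRCA2* had smaller differences. *BARD1* (ENSG00000138376, hg19 chromosome 2, 215590370 to 215674407) had 562 and 586 counts in the controls and 349 and 455 counts in OE. The libraries did not overlap, at 24.5 ± 0.569 CPM (SD, n = 2) against 14.8 ± 1.29 CPM (SD, n = 2), or 60.4% of the control. The log2 fold change was -0.73 (standard error 0.122, edgeR adjusted p 0.101).

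*BRCA1* had 1446 and 1464 counts in the controls and 1373 and 1610 counts in OE. After scaling both OE libraries were lower, at 62.2 ± 0.146 CPM against 55.2 ± 0.667 CPM (SD, n = 2 each), a log2 fold change of -0.17 (standard error 0.0831, edgeR adjusted p 0.342). The difference between *BARD1* and *BRCA1* in their fold changes was not tested. *PALB2*, which bridges BRCA1 and BRCA2, had 1043 and 969 counts in the controls and 920 and 1042 in OE, and a log2 fold change of -0.24 (edgeR adjusted p 0.275). Its transcript ENST00000566069.1 had 168, 124, 0 and 146 counts (vector control 1 and 2, OE 1 and 2), the rest summed to 875, 845, 920 and 896, and the leading transcript alone gave -0.091. *BRCA2*, the mediator of strand pairing, had 870 and 738 counts against 842 and 913, and its scaled libraries overlapped (log2 fold change -0.08, edgeR adjusted p 0.779).

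Both RAD54 genes, whose proteins are DNA translocases that act in strand exchange, were lower in OE at the unadjusted p. *RAD54L* (ENSG00000085999, hg19 chromosome 1, 46712133 to 46744152) had 284 and 270 counts in the controls and 189 and 216 in OE. In CPM it was at 11.8 ± 0.499 against 7.50 ± 0.0456 (SD, n = 2 each), and its log2 fold change was -0.66 (standard error 0.128, edgeR adjusted p 0.118). *RAD54B* had 296 and 315 counts against 178 and 238. Its expression was 13.1 ± 0.491 CPM in the controls and 7.66 ± 0.802 CPM in OE (SD, n = 2 each), a log2 fold change of -0.77 (standard error 0.148, edgeR adjusted p 0.116). Its leading transcript ENST00000336148.5 had 229, 268, 116 and 153 counts (vector control 1 and 2, OE 1 and 2) and alone gave -1.10. ENST00000297592.5 of *RAD54B* had 67, 44, 62 and 85 and was not lower in OE. The groups did not overlap in either gene. *RAD52*, which anneals single strands, had a log2 fold change of -0.02.

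Exons of other genes overlap both RAD54 genes, and the sources used here do not state whether the counting used strand. *FSBP* covers 66.0% of the exonic bases of *RAD54B* on the same strand and had 8 and 19 counts in the controls and 10 and 39 counts in OE. *LRRC41* covers 19.9% of those of *RAD54L* on the opposite strand and had 3183 and 2475 counts against 3809 and 3929. The part of these overlaps in the values was not tested.

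Of the 5 accessory genes of strand exchange, *RAD51B*, *RAD51C*, *RAD51D*, *XRCC2* and *XRCC3*, *XRCC2* was lower at the unadjusted p. It had 1494 and 1363 counts in the controls and 1233 and 1403 in OE. Scaled, the libraries separated at 61.1 ± 4.35 against 48.8 ± 0.448 CPM (SD, n = 2 each), and the log2 fold change was -0.32 (standard error 0.0992, edgeR adjusted p 0.205). *RAD51B* at 0.14 and *RAD51C* at 0.23 on the log2 scale (0.11 without OE replicate 2) had both OE libraries above both controls, and *RAD51D* was at -0.02, none of them at an unadjusted p under 0.05. The fifth gene, *XRCC3*, was at 0.06 on the log2 scale with a standard error of 0.777.

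*SLX4*, the scaffold on which repair nucleases assemble, had 1388 and 1308 counts in the controls and 1167 and 1406 in OE. *RAD18*, a ubiquitin ligase of damage tolerance, had 868 and 945 counts against 752 and 928. Both separated only after scaling, with log2 fold changes of -0.28 (standard error 0.0941) and -0.32 (standard error 0.103), the smallest of the 9 beside *XRCC2* at -0.32. Their adjusted p-values in edgeR were 0.231 and 0.215, and each kept an unadjusted p under 0.05 in 5 of 12 alternatives, as *FANCM* did. These 3 genes lost it whichever library was left out, and *XRCC2* without vector control replicate 1, OE replicate 1 or OE replicate 2. *FANCI*, *BARD1*, *RAD54L* and *RAD54B* kept it in 12 of 12, and *XRCC2* in 7.

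Of the break sensing and resection genes, 0 of 4 had an unadjusted p under 0.05, against 20.8% of all tested genes in either direction. *RAD50*, the coiled ATPase of the complex, was at 0.25, *RBBP8*, which encodes the resection factor CtIP, at 0.25, *NBN* at -0.17 and *MRE11A*, the nuclease, at -0.24 on the log2 scale. These values moved with single libraries, *RAD50* to 0.057 and *RBBP8* to 0.15 without OE replicate 2, and *NBN* to -0.11 and *MRE11A* to -0.085 without vector control replicate 2. A second gene that is not in the table accounts for most of the 79.2% of *RAD50* exonic bases shared with other genes, so the *RAD50* value may include its reads.

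Of the 5 checkpoint genes, 0 had an unadjusted p under 0.05 in the fit of all 4 libraries (20.8% of all tested genes did). Without vector control replicate 2, *ATR* (log2 fold change -0.50) and *CHEK2* (-1.26) were lower at that p, while without vector control replicate 1 they were at 0.15 and -0.035. *ATM*, the kinase activated by breaks, had 2126 and 2254 counts in the controls and 2225 and 3026 in OE (log2 fold change 0.05, edgeR adjusted p 0.861). *ATR*, the kinase activated by single-stranded DNA, had 1001 and 647 counts against 733 and 925 (log2 fold change -0.20, edgeR adjusted p 0.7). *CHEK1*, the kinase that ATR activates, had 357 and 383 counts against 341 and 336, with both scaled OE libraries below the controls (log2 fold change -0.33, edgeR adjusted p 0.307). *TOPBP1*, the activator of ATR, was at 0.07 on the log2 scale.

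**Figure D2:**
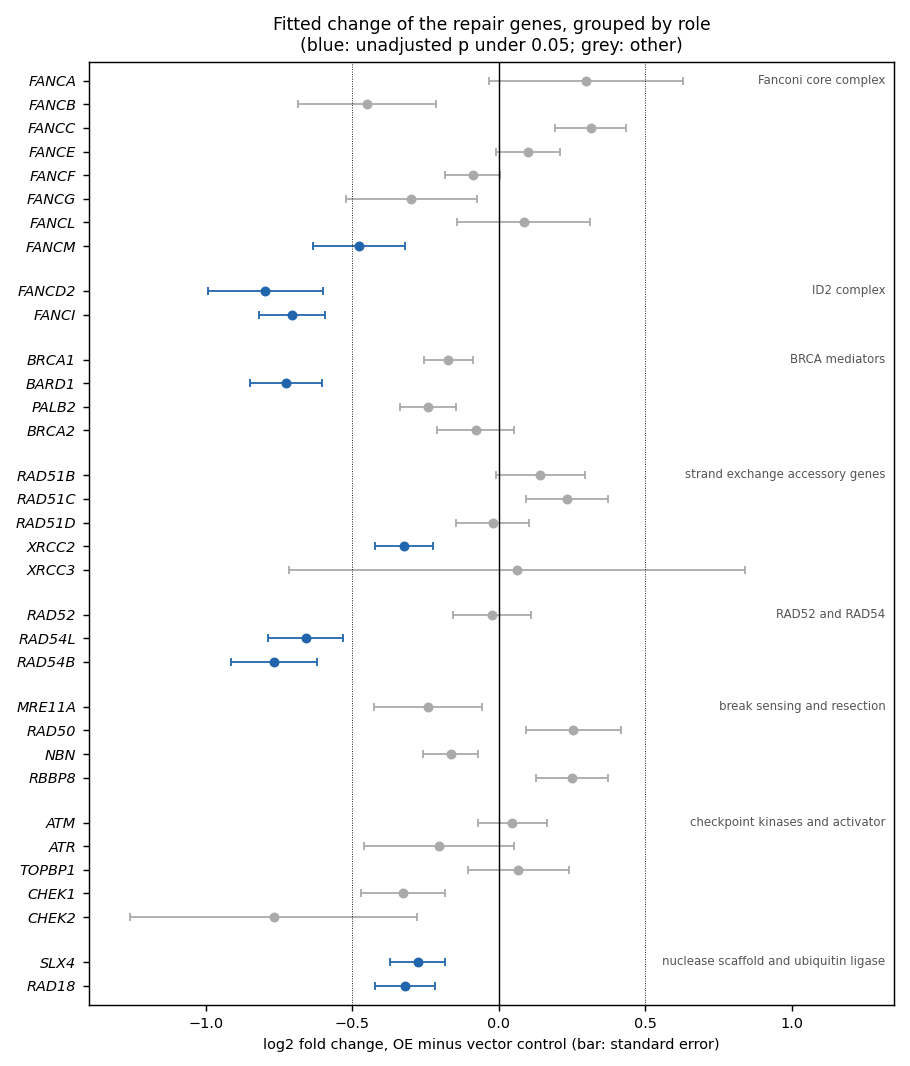
Fitted log2 fold change (OE minus vector control) of the 33 repair genes, grouped by role, with its standard error as the bar; blue points had an unadjusted p under 0.05. The blue points all lie below 0 and fall in the core complex, the FANCD2-FANCI pair, the BRCA group, the strand exchange accessory genes, the RAD54 genes and the nuclease scaffold and ubiquitin ligase pair.

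The promoters of 4 of the 9 lower genes that hold an E2F core motif are shown because E2F factors are known to switch on genes at entry into S phase, and that of *FANCC*, the gene with the highest fold change, is shown beside them. The windows run from 250 bases before to 50 bases after the start in RefSeq (GRCh38.p14), 5′ to 3′ on the gene's strand, and capitals mark the E2F core (the letters TTCCCGC, or else TTCGCGC, or else TTGCCGC, or else TTGGCGC, on either strand). They are chr2:214809634-214809933 (minus strand) for *BARD1*, chr3:10026187-10026486 (plus) for *FANCD2*, chr1:46247438-46247737 (plus) for *RAD54L*, chr7:152676092-152676391 (minus) for *XRCC2* and chr9:95317660-95317959 (minus) for *FANCC*.
BARD1: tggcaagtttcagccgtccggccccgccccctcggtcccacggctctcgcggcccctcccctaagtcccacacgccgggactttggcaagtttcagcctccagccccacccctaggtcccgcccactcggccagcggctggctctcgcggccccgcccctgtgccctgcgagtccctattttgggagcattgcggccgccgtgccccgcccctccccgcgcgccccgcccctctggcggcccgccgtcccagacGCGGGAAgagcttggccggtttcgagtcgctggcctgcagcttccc
FANCD2: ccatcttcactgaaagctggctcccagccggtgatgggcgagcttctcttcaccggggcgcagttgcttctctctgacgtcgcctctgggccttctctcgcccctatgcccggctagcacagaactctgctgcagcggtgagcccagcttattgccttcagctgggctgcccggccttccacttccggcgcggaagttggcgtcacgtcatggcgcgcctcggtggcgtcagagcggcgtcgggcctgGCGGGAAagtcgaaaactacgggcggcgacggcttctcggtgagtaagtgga
RAD54L: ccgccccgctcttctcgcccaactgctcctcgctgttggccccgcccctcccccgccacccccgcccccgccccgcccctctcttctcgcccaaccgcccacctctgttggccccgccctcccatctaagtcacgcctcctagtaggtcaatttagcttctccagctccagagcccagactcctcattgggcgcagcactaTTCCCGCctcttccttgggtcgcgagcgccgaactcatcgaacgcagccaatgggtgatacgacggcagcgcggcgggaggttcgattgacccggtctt
XRCC2: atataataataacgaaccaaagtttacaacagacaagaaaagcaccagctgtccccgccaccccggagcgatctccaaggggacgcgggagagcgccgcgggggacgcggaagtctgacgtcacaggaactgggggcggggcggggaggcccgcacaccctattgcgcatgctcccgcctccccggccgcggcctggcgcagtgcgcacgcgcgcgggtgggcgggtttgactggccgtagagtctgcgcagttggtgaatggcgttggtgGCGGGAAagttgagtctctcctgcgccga
FANCC: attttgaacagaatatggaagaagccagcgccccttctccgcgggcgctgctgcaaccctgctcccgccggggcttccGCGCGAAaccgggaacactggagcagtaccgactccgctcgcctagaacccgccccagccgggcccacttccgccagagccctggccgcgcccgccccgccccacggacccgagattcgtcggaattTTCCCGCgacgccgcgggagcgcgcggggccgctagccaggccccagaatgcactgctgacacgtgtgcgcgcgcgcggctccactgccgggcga

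RefSeq promoters were matched for 30 of the 33 genes, and *FANCI*, *NBN* and *RAD54B* had no entry. Some genes had several starts, among them *RAD54L* and *FANCC*, of which not all are shown above. Such a gene was counted as holding a motif if any of its windows held it. An E2F core stood in 15 of the 30, against 24.2% of the 10782 tested genes with a promoter and 15.3% of all 27305 genes with a RefSeq promoter. Among the lower genes 4 of 7 held it (57.1%), and among the other members 11 of 23 (47.8%). The cell cycle homology region, TTTGAA on either strand, stood in 2 of 30 (6.67%, against 13.9% of tested genes), those of *ATM* and *FANCC*. A CCAAT box, CCAAT on either strand, stood in 11 of 30 (36.7%, against 42.9%). The E2F core was thus more frequent in these promoters than in those of the tested genes, a difference given without a test. It was found in genes with lower, similar and higher values in OE. A match is a description of letters and not of binding.

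Levels can be compared between genes only per transcript length, which was known for at least 90% of the counts of 29 genes. In CPM per kilobase in the vector control, *FANCF* was highest at 21.8 and 20.1, followed by *RAD50* at 14.3 and 15.2 and *NBN* at 13.6 and 14.8. *RAD50* and *NBN* overlapped, and *FANCF* lay above both. *XRCC3*, at 6.01 and 15.4, spread from well below *RAD50* to just above it. The lowest levels were those of *MRE11A* at 0.899 and 1.14 and *FANCM* at 1.34 and 1.27, with *FANCA* spread from 0.693 to 2.23 around them. The 3 subunits of the break sensing complex thus stood at both ends of the order. The *RAD50* level may include reads of the gene that shares most of its exonic bases. Lengths were those of the annotation used here, which may differ from the one used in counting. Of the lower genes, *XRCC2* was at 13.6 and 12.3, *FANCI* at 6.33 and 6.06, *RAD54B* at 4.73 and 4.96, *BARD1* at 4.41 and 4.75 and *FANCD2* at 1.98 and 1.69.

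Replicates of the 33 genes were close, with a median ratio between libraries of 1.08 in the controls and 1.13 in OE. The ratio passed 2 in 2 of the 33 genes (6.06%), against 11.8% of 13614 tested genes at or above the mean CPM of the lowest of the 33. The 2 were *XRCC3* and *CHEK2*. *XRCC3*, an accessory gene of strand exchange, had 295 and 843 counts in the controls and 322 and 1093 in OE, so that each condition had 1 low and 1 high library. *CHEK2*, the kinase that ATM activates, had 257 and 111 counts in the controls and 99 and 153 in OE. Vector control replicate 1 was the high library, and the log2 fold change of *CHEK2* went from -0.77 (standard error 0.49, edgeR adjusted p 0.45) to -0.03 without it and to -1.26 without vector control replicate 2.

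The counts were deposited per transcript, and they often moved as a block from 1 transcript of a gene to another between libraries of the same condition. The leading transcript differed between libraries in 6 of 31 of these genes with several listed transcripts (19.4%, against 22.6% of 11356 tested genes), namely *FANCG*, *FANCL*, *BRCA2*, *RAD51B*, *RBBP8* and *CHEK2*. *BRCA2* had 860, 0, 0 and 901 counts on ENST00000380152.3 (vector control 1 and 2, OE 1 and 2) and 8, 736, 840 and 8 on ENST00000544455.1. The block thus lay on the first transcript in 1 library of each condition, and the sum per gene was even. *RBBP8* counts also lay on different sets of transcripts from library to library, among them ENST00000399725.2 with 0, 0, 0 and 742.

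In *CHEK2*, ENST00000544772.1 had 253, 0, 0 and 0 counts and ENST00000416671.1 had 0, 102, 92 and 147. *FANCG* and *FANCL* also had a different leading transcript in vector control replicate 1 than in the other libraries: ENST00000378643.3 of *FANCG* had 178, 0, 0 and 0 counts, and ENST00000402135.3 of *FANCL* had 122, 0, 0 and 0. *RAD51B* was led by ENST00000487270.1 with 41, 39, 57 and 60 counts, except in vector control replicate 2, where ENST00000469165.2 had 44. Sums per gene are therefore the values compared here, and the leading transcript was the same in every library for the 9 lower genes.

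Single transcripts also carried the spread in 2 other genes. In *XRCC3*, ENST00000554913.1 had 154, 707, 222 and 997 counts, and *KLC1*, a kinesin light chain on the opposite strand, covers 76.7% of the exonic bases and had 1805, 1763, 1827 and 2070. In *ATR*, the retained intron transcript ENST00000513291.1 had 315, 0, 0 and 208 counts. The rest of the *ATR* counts summed to 686, 647, 733 and 717, a narrow range in which the libraries of both conditions were close. The leading transcript of *XRCC2*, ENST00000495707.1, has no coding sequence defined in the annotation used here, and those of *FANCG*, *RAD51C*, *NBN*, *ATM* and *CHEK2* are annotated as targets of nonsense-mediated decay. These types were matched by identifier without its version, and some counted transcripts were not found. They may therefore differ from the transcript models used in counting, and whether the reads came from decayed RNA was not tested.

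**Figure D3:**
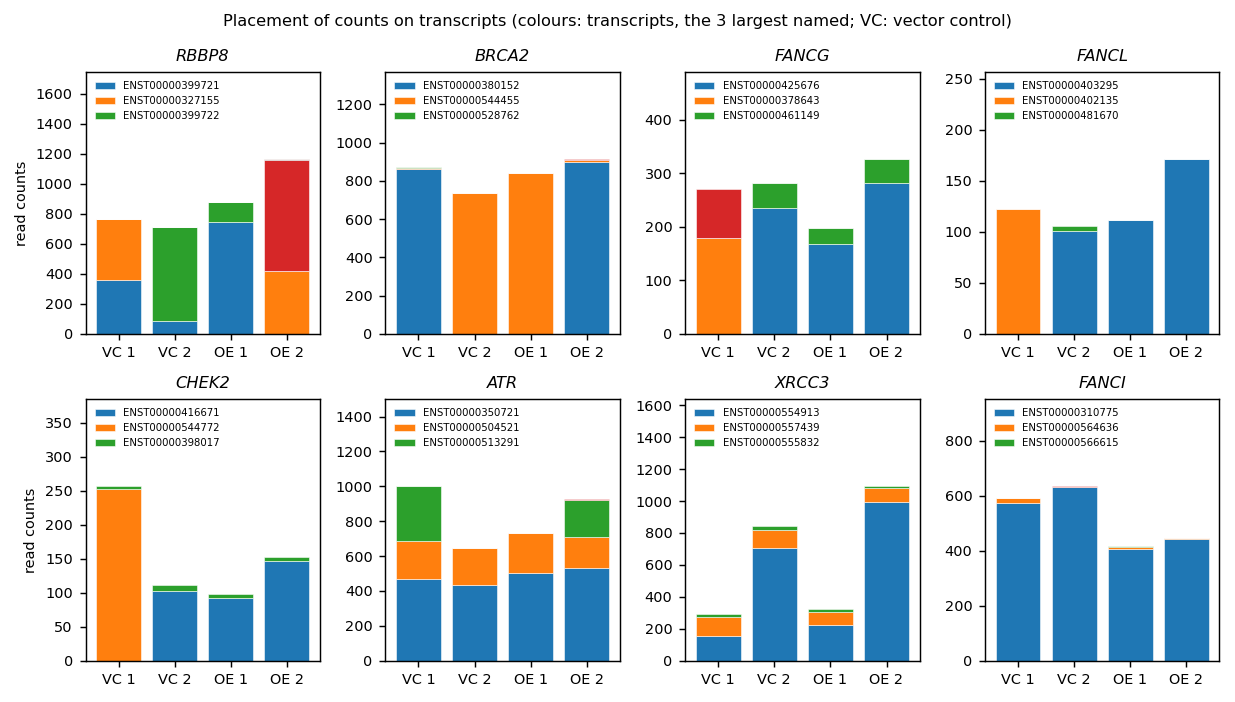
Read counts per transcript (stacked bars, colours for transcripts) in the 4 libraries for members whose counts moved between transcripts. The *BRCA2* bars change colour between libraries while their total stays between 738 and 913 counts, and the *CHEK2* bar of vector control replicate 1 stands at 257 against 99 to 153 in the others.

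Of 38 other genes of the same pathways, 37 were tested and *MDC1* had 0 counts in all 4 libraries, which allows up to 3 each. Lower at the unadjusted p were 9 (24.3%, against 10.7% of all tested genes) and higher were 3 (8.11%, against 10.1%). The median log2 fold change was -0.20, and 19 of 37 were below 0 (51.4%, against 49.3%). Both directions together gave 12 genes (32.4%, against 20.8% of all tested genes). That number was smaller with any 1 library left out, as was the share of all tested genes that were lower. *EXO1*, a resection nuclease, had 651 and 607 counts in the controls against 376 and 477 in OE (log2 fold change -0.77, edgeR adjusted p 0.0933). *CLSPN*, which encodes the adaptor claspin between ATR and CHEK1, had 379 and 380 against 251 and 298 (log2 fold change -0.68, edgeR adjusted p 0.102). In both genes the 2 OE libraries were below the 2 controls.

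*MUS81*, the catalytic subunit of a structure-specific nuclease, had the opposite direction. Its libraries held 299 and 294 counts in the controls and 721 and 799 counts in OE, a log2 fold change of 1.15 (standard error 0.105, edgeR adjusted p 0.0615). The counts of *MUS81* also moved between its transcripts, with ENST00000308110.4 at 31, 0, 685 and 0, while the sums per gene were close within each condition. The other 2 higher genes, named after their values were seen, were *TOP3A* and *WDR48*.

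End joining, the route that seals breaks without a template, was read as a comparison list of 10 genes. edgeR found 0 of the 10 at the unadjusted p in either direction, against 20.8% of all tested genes, with a median log2 fold change of 0.02. Its 3 smallest p-values were those of *LIG4*, the ligase of the route, with a log2 fold change of 0.26, *DCLRE1C*, which encodes the nuclease Artemis, at -0.23 and *XRCC6*, which encodes Ku70, at 0.21. *LIG4* went to 0.15 without vector control replicate 2, and *XRCC6* to 0.13 without vector control replicate 1. A difference between the 2 repair routes was not tested.

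The comparison list for cell division held 24 proliferation genes. At the unadjusted p 11 of 24 were lower (45.8%, against 10.7% of all tested genes) and 0 were higher (0%, against 10.1%), 22 of 24 had a log2 fold change below 0 (91.7%, against 49.3%), and the median was -0.51. The number of lower genes was smaller with any 1 library left out, and so was the share of all tested genes that were lower. *MKI67*, a marker of cycling cells, had 4599 and 4135 counts in the controls and 2352 and 2742 in OE, a log2 fold change of -0.99 (edgeR adjusted p 0.0615). *CCNA2*, the cyclin of S and G2 phase, was at -0.83 and *TOP2A*, the topoisomerase of dividing cells, at -0.68.

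The summed level of the proliferation list was 1088.9 and 1136.6 CPM in the controls and 719.6 and 714.1 CPM in OE. All 33 repair genes summed to 1001.5 and 1009.5 CPM in the controls against 891.1 and 985.4 CPM in OE. The part of the proliferation genes in the repair values was not tested.

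**Figure D4:**
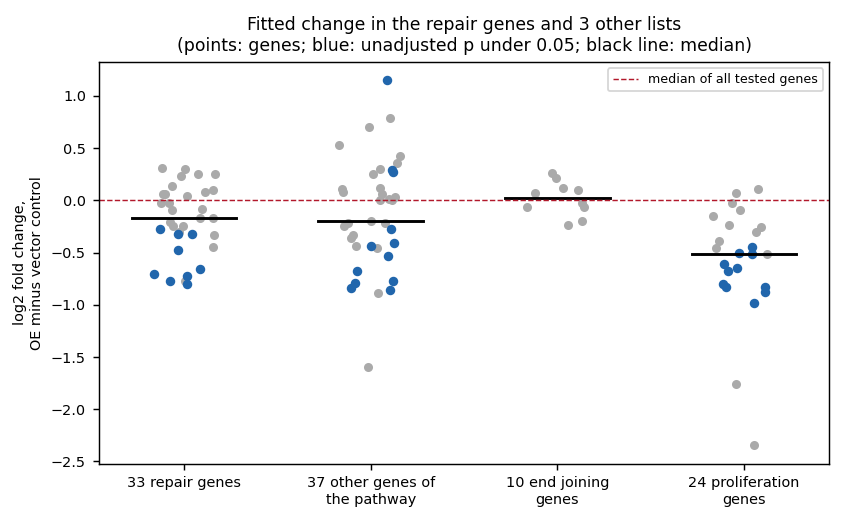
Fitted log2 fold change (OE minus vector control) of every tested gene in the repair list, the other pathway genes, the end joining list and the proliferation list, with the list median as a black line and the median of all tested genes as a dashed line. Medians stand at -0.17, -0.20, 0.02 and -0.51, and blue points had an unadjusted p under 0.05.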

How the data were processed

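RNA-seq was analysed in 4 libraries of SK-N-SH cells, 2 vector control and 2 OE, grouped by their treatment label. FastQC and Trimmomatic served the authors for quality control and trimming, and they used Bowtie2 for mapping to hg19. Their deposited table holds unnormalized whole-number read counts, 1 row per transcript. The submitters' processing notes also name Picard 2.21.6, StringTie 2.1.6 and Bowtie2 2.0.4. The counting step, its annotation release and its use of strand are not given in the sources used here.

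Counts of 196520 transcripts were summed per gene, filtered with filterByExpr, normalized by TMM (factors 0.976 to 1.02) and tested with edgeR 4.0.16 in R 4.3.3, quasi-likelihood, without covariates, with Benjamini-Hochberg adjustment over 20528 genes. The common dispersion was 0.122. Limits for a count of 0 cover counting error only, since reads carry no molecular identifiers. Gene positions and transcript types were read from a GENCODE annotation lifted to GRCh37. The scripts were tested on simulated data with less dispersion than these libraries have. That check does not show how the tests perform at the dispersion found here.

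Alternatives were DESeq2 1.42.0 (the study's own tool), limma-voom 3.58.1, RLE or upper-quartile normalization, 2 other filters, a replicate block, each library left out, the transcript with the highest mean count and an adjusted p under 0.05. The 33 genes, the other lists and the motifs were chosen with earlier results of these data known. By rule, all members were accounted for, counts per library were given for members with an unadjusted p under 0.05, for members with replicates over 2-fold apart and for *BRCA1*, *BRCA2*, *PALB2*, *FANCD2*, *FANCI*, *ATM*, *ATR* and *CHEK1*, transcripts were named where the leading one differed between libraries, and other lists were named by their 3 smallest p-values. 1 other gene that the rule names is not reported here. Genes or transcripts outside the rule were chosen after their values were seen.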

Additional observations from a re-analysis of the deposited data

How the results depend on the processing

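The direction of the 9 lower genes was the same under every alternative run, but how many passed an unadjusted p under 0.05 depended on the setting. Upper-quartile normalization moved the median of all genes to 0.05 on the log2 scale. It gave 5 lower genes (15.2%, against 9.25% of all genes) in place of 9. *FANCC* passed as higher in that fit, *RAD51D* was at 0.018 and *RAD52* at 0.016. DESeq2 called 5 genes at the adjusted threshold against 0 in edgeR, and gave 12 lower at the unadjusted p (36.4%, against 14.9% of all genes). At that p *FANCC* was higher in DESeq2 and 1 end joining gene passed, for which the shares of all genes are not given. Of 43 named genes, 11 passed the adjusted threshold in DESeq2 that did not in edgeR, against 8.77% of all tested genes. Some of the 43 were named for the smallest p-values of their lists, which favours such calls. The transcript with the highest mean count gave a median of -0.091, and put *FANCG* at 0.71 and *CHEK2* at 1.01. The cause of these differences was not tested.

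Replicate numbers did not pair the libraries (r = -0.0152 across 20528 genes for the deviations of same-numbered libraries, which are not independent genes). With a replicate block, 5 of the 33 genes were lower (15.2%, against 7.69% of all genes), and no other call of the 33 genes was gained. Fewer other pathway genes passed than without the block, and fewer of all genes were lower as well.

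With 1 library left out, 0 genes were called in every case, the lone library being assumed to vary like the other condition. The lower genes numbered 4 without vector control replicate 1, 7 without vector control replicate 2 (5 of the 9, with *ATR* and *CHEK2* gained), 5 without OE replicate 1 and 4 without OE replicate 2. The median ran from -0.22 to -0.14, and *RAD50* reached 0.43 without OE replicate 1. Other pathway genes numbered 5 (without vector control replicate 2) to 10, end joining genes 0 to 1 (without vector control replicate 1) and proliferation genes 7 (without OE replicate 1) to 10. Fold changes crossed 0 for *FANCA* (-0.034 to 0.72), *FANCL* (-0.14 to 0.28), *BRCA2* (-0.20 to 0.049), *RAD51D* (-0.095 to 0.048), *XRCC3* (-0.92 to 0.99), *RAD52* (-0.12 to 0.067), *ATM* (-0.078 to 0.16), *ATR* (-0.50 to 0.15) and *TOPBP1* (-0.10 to 0.25). Each of the 33 genes had at least 87 counts per library, and the fit had 2 residual degrees of freedom.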
